A study of Homo sapiens with 6 samples.

Results

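The survival and pore-forming genes of the BCL2 family were followed at the mRNA level in untreated and oxaliplatin-treated HCT116 cells. The members were 5 genes that encode survival proteins (BCL2, BCL2L1, BCL2L2, MCL1 and BCL2A1) and 3 that encode pore-forming proteins (BAX, BAK1 and BOK). They were picked by gene symbol, with earlier results of these data known, and each matched 1 row, giving 8 of the 27942 genes of the table. The samples were 3 RNA-seq libraries of untreated cells (NT) and 3 of cells exposed to 0.5 µM oxaliplatin for 24 h (OXA). HCT116 is an established human colon cancer line with wild-type p53, wild-type APC and mutated CTNNB1, shared by all 6 libraries, and oxaliplatin is a platinum drug that forms adducts on DNA. A single line was profiled at a single dose and time. Nothing in the labels says that the libraries of a group came from separate cultures, so p-values measure only the spread between these libraries, which may be technical. The comparison asked which of these genes changed in mRNA level with the drug, and whether the balance between them shifted.

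BCL2 family proteins decide whether the outer membrane of the mitochondrion is breached during apoptosis. BAX and BAK1, once activated, assemble into pores that release cytochrome c, and survival proteins such as BCL2, BCL-xL (from BCL2L1) and MCL1 hold them in check. BH3-only proteins, such as PUMA (from BBC3) and NOXA (from PMAIP1), bind the survival proteins or activate the pore formers, and BAX, BBC3 and PMAIP1 are textbook targets of p53.

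Library totals lay between 32979521 and 40967880 counts, and 13727 genes passed the filter on low counts, among them 7 of the 8 members. Library NT1 stood apart from the other untreated libraries. Across 13675 genes, its log2 deviation from the mean of all 6 libraries had a correlation of -0.68 with GC content. The correlation was 0.38 for NT2, 0.13 for NT3, -0.16 for OXA1, 0.51 for OXA2 and 0.12 for OXA3. The trend was thus not confined to NT1, and leaving out NT1 does not remove it from the other libraries. These are descriptions across genes, which are not independent replicates. In the fifth of genes richest in GC the median deviation of NT1 was -0.65, against -0.087 to 0.34 in the other 5 libraries. Such deviations also hold any difference between NT and OXA. Values without NT1 are therefore given beside the results it touches most. Libraries sharing a replicate number in NT and OXA departed from their group means in the same sense, and values with this number as a block (the replicate block) are given where a call changes. Of the 6 epithelial markers, EPCAM, CDH1, KRT8 and KRT18 were abundant, whereas the intestinal markers CDX2 and VIL1 had 434 to 599 and 39 to 95 counts in a library. Of the markers of other cells, PTPRC, CD3E and COL1A2 had at most 2 counts, PECAM1 at most 7, VWF 13 to 29 and COL1A1 107 to 273. The summed level of the 6 epithelial markers lay between 71292 and 95941 normalized counts in NT and between 101350 and 113693 in OXA. It came mostly from KRT8 and KRT18. Of these 6, edgeR and DESeq2 called 0, beside 5.07% and 8.71% of all genes. At an unadjusted p-value under 0.05, edgeR had 2 higher, beside 21.7% of all genes in either direction. The replicate block called 2 higher and 1 lower, beside 12.1% and 10.9% of all genes. The summed level of the 6 markers of other cells was 133 to 308 in NT and 199.6 to 298 in OXA, mostly COL1A1. The part of these markers in the results below was not tested.

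BAX and BCL2L1 rose with oxaliplatin, about 2.29-fold and 1.81-fold respectively, whereas the other 5 tested members did not pass the threshold of an adjusted p-value under 0.05 (edgeR's quasi-likelihood test, Benjamini-Hochberg adjustment over all genes tested). A pore-forming gene and a survival gene thus moved in the same direction. The 2 of 7 members called compare with 5.07% of all tested genes, the 2 called higher with 2.78% called higher, and the 0 called lower with 2.29% called lower. At an unadjusted p-value under 0.05, 4 members were higher and 1 was lower, against 21.7% of all tested genes in either direction. DESeq2 called 3 members, 3 higher and 0 lower, against 8.71% of all genes (4.48% higher and 4.23% lower). Values of the OXA libraries did not overlap those of the NT libraries for 5 of the 7 tested members, 4 higher and 1 lower, against 28.9% of all tested genes without overlap (14.5% higher and 14.4% lower). The median log2 fold change was 0.22 over the 7 tested members and 0.023 over all tested genes. In RNA from whole cultures, fewer cells expressing a gene and less RNA per cell cannot be told apart.

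**Figure D1:**
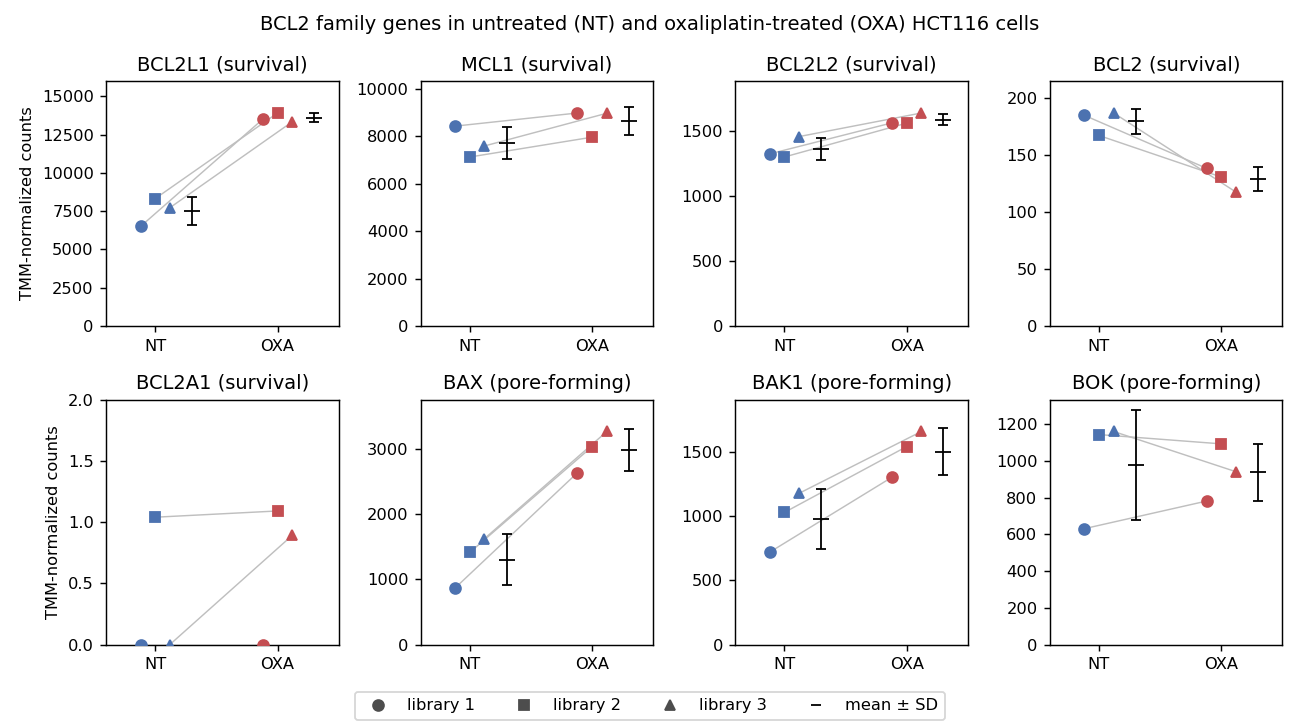
TMM-normalized counts (y axis, from 0, a scale of its own in each panel) of the 8 genes in the NT and OXA libraries. Each symbol is 1 library, grey lines join same-numbered libraries and black marks give mean ± SD (n = 3, not drawn for BCL2A1). BAX, BCL2L1, BAK1 and BCL2L2 lie higher in all 3 OXA libraries, BCL2 lies lower, BOK and MCL1 overlap, and BCL2A1 has at most 1 count in any library.

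Among the survival genes, BCL2L1 (ENSG00000171552, chr20:31664452-31723989, minus strand, GRCh38) encodes BCL-xL, which binds and restrains BAX and BAK1. It had 6499, 8319 and 7725 normalized counts in NT1, NT2 and NT3, and 13508, 13908 and 13334 in OXA1, OXA2 and OXA3. Every OXA library was well above every NT library, and the OXA libraries lay close together, with a coefficient of variation of 2.17% against 12.3% in NT. The mean went from 7515 ± 928 to 13583 ± 294 (SD, n = 3), a log2 fold change of 0.85 ± 0.11 (SE), with a 95% confidence interval of 1.52-fold to 2.15-fold and an edgeR adjusted p of 0.00802. The call held in 5 of the 6 fits that left out 1 library, and the adjusted p was 0.0566 without OXA1, with a log2 fold change of 0.86. Without NT1 the log2 fold change was 0.76 (adjusted p = 0.00158). The annotation lists 15 transcripts of BCL2L1, some of which encode a short form known to favour death. The deposited counts are per gene and do not separate these forms.

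MCL1 (ENSG00000143384, chr1:150560895-150579738, minus strand) encodes a short-lived survival protein. It had 8423, 7122 and 7587 normalized counts in NT1 to NT3 and 8977, 7958 and 8966 in OXA1 to OXA3. The groups overlapped, since OXA2 was below NT1. The log2 fold change was 0.16 (95% interval -0.065 to 0.39, edgeR adjusted p = 0.391). MCL1 overlaps ADAMTSL4 on the opposite strand, but the latter had at most 68 counts in a library.

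BCL2L2 (ENSG00000129473, chr14:23298790-23311751, plus strand) encodes BCL-w, a close relative of BCL-xL. It had 1322, 1298 and 1455 normalized counts in NT1 to NT3 and 1560.2, 1558 and 1636 in OXA1 to OXA3. The OXA libraries were all higher, by a small margin. The log2 fold change of 0.22 ± 0.093 (SE) had an edgeR adjusted p of 0.217, and of 0.0474 with the replicate block. A readthrough gene on the same strand, BCL2L2-PABPN1, shares exons with it and had between 6 and 51 counts in a library, so a few reads could have been assigned to either.

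BCL2 (ENSG00000171791, chr18:63123346-63320128, minus strand), the founding survival gene of the family, was scarce in these cells. It had 185, 167 and 187 normalized counts in NT1 to NT3 and 138, 131 and 118 in OXA1 to OXA3, so that every OXA library was below every NT library. The mean went from 179.8 ± 10.9 to 129 ± 10.6 (SD, n = 3), a log2 fold change of -0.48 ± 0.15 (SE). The spread between libraries, 6.04% in NT and 8.19% in OXA, was no larger than counting error alone would give (7.41% and 8.89%). The edgeR adjusted p was 0.123, and 0.0497 with the replicate block, which called BCL2 lower.

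BCL2A1 (ENSG00000140379, chr15:79960892-79971196, minus strand), a survival gene best known from blood cells, was not detectable at this depth. It had 0, 1 and 0 counts in NT1 to NT3 and 0, 1 and 1 in OXA1 to OXA3. All values were under the floor of 3 counts per library, which corresponds to between 0.0732 and 0.0910 CPM, so no fold change is given. This floor covers counting error only, whereas the intervals given for other members also include the spread between libraries.

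Among the pore-forming genes, BAX (ENSG00000087088, chr19:48954815-48961798, plus strand) had 868, 1413 and 1624 normalized counts in NT1 to NT3 and 2637, 3038 and 3269 in OXA1 to OXA3. NT1 was the lowest library of all, and the lowest OXA library was still well above the highest NT library. The mean went from 1302 ± 390.4 to 2981 ± 319.9 (SD, n = 3), a log2 fold change of 1.19 ± 0.22 (SE), with a 95% interval of 1.61-fold to 3.25-fold and an edgeR adjusted p of 0.0258. This log2 fold change stood at percentile 98.9 of all tested genes. Without NT1 it was 0.97, with a smaller adjusted p of 0.00209. The call was lost when any of the other libraries was left out, with an adjusted p of 0.0658 without NT2, 0.0511 without NT3, 0.0878 without OXA1, 0.104 without OXA2 and 0.110 without OXA3, although the log2 fold change stayed between 1.10 and 1.36. Between same-numbered libraries BAX was 3.04-fold, 2.15-fold and 2.01-fold higher in OXA.

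BAK1 (ENSG00000030110, chr6:33572547-33580293, minus strand) encodes BAK, the partner of BAX, which resides on the mitochondrion. It had 721, 1031 and 1180.0 normalized counts in NT1 to NT3 and 1306, 1545 and 1663 in OXA1 to OXA3. The groups did not overlap, but the margin between NT3 and OXA1 was small. The log2 fold change was 0.62 ± 0.19 (SE), with an edgeR adjusted p of 0.104. It passed with the replicate block (0.64, adjusted p = 0.00825) and with DESeq2 (adjusted p = 0.0212), and without NT1 it was 0.44 (adjusted p = 0.0626). No edgeR fit that left out 1 library called BAK1, with adjusted p from 0.0626 to 0.303. Between same-numbered libraries BAK1 was between 1.41-fold and 1.81-fold higher in OXA.

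BOK (ENSG00000176720, chr2:241551424-241574131, plus strand) encodes a pore former that is little restrained by the survival proteins. It had 631, 1143 and 1159.9 normalized counts in NT1 to NT3 and 781, 1092 and 941 in OXA1 to OXA3. NT1 and OXA1 were the lowest of their groups, and the groups overlapped throughout. The log2 fold change was -0.060, with a 95% interval of -0.62 to 0.50 and an edgeR adjusted p of 0.916. Its sign changed with the library left out, from -0.30 without NT1 to 0.056 without OXA1, with 0.040 without NT2 and 0.055 without NT3.

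**Figure D2:**
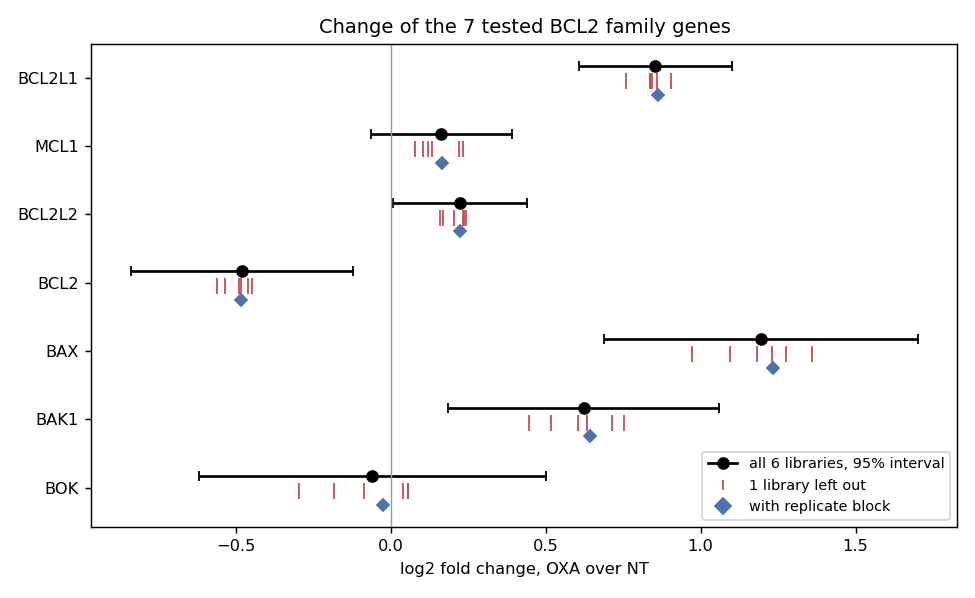
Log2 fold change of OXA over NT (x axis) of the 7 tested genes (y axis). Black points and bars give the fit of all 6 libraries with its 95% interval, red ticks the fits that leave out 1 library, and blue diamonds the fit with the replicate block. BAX, BCL2L1, BAK1 and BCL2L2 stay above 0 throughout, the interval of BCL2L2 only just. BCL2 stays below 0, and only BOK has ticks on both sides of 0.

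With the replicate block, 4 members were called higher (BAX, BCL2L1, BAK1 and BCL2L2) and 1 was called lower (BCL2), whereas the fit called 23.0% of all tested genes, 12.1% higher and 10.9% lower. The log2 fold change of BAX was 1.23 (adjusted p = 0.00367) and that of BCL2L1 0.86 (adjusted p = 0.00268) in this fit. A setting added after the data had been seen removed each library's trend on GC content and transcript length as well as the block. It called 5 members higher and 2 lower, against 44.2% of all genes, 22.5% higher and 21.7% lower. MCL1 then joined the higher genes (0.21, adjusted p = 0.00179) and BOK the lower ones (-0.27, adjusted p = 0.00781). BAX stood at 0.99, BCL2L1 at 0.70 and BAK1 at 0.45, each less than in the fit without these trends.

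The members differed in GC content in the order in which NT1 set them apart. On the log2 scale, NT1 differed from the mean of NT2 and NT3 by -0.87 for BOK (66.0% GC), by -0.80 for BAX (58.9%) and by -0.61 for BAK1 (58.8%). The difference was -0.30 for BCL2L1 (58.2%), -0.056 for BCL2L2 (52.3%), 0.064 for BCL2 (45.6%) and 0.20 for MCL1 (44.7%). By these differences, the pore-forming genes are those whose NT level depends most on NT1. BAX, BAK1 and BCL2L1 were close in GC content but not in this difference. The part of GC content in it was not tested. With the trends on GC content and length removed but no block, BAX stood at 0.99, BCL2L1 at 0.70, BAK1 at 0.45 (adjusted p = 0.0134), MCL1 at 0.22 (adjusted p = 0.0308) and BCL2 at -0.43 (adjusted p = 0.0477).

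Ratios between genes of the same library do not depend on the library's normalization factor. They can still carry its trend on GC content where the genes differ in it, as BCL2L1 (58.2%) and MCL1 (44.7%) do. With GC and length trends removed, the log2 fold changes of these genes were 0.70 and 0.22, against 0.85 and 0.16 before. No ratio was computed with the trends removed. The count of BAX over that of BAK1 was 1.20, 1.37 and 1.38 in NT1 to NT3 and 2.02, 1.97 and 1.97 in OXA1 to OXA3. All OXA libraries were above all NT libraries, and NT1 lay nearer to NT2 and NT3 than it did in the levels. The ratio was 1.51-fold higher in OXA (log2 difference 0.59, exact permutation test, two-sided p = 0.1, the smallest value that 3 against 3 libraries can give). Without NT1 the log2 difference was 0.53.

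The count of BAX over that of BCL2L1, the pore former against its inhibitor, was 0.134, 0.170 and 0.210 in NT1 to NT3 and 0.195, 0.218 and 0.245 in OXA1 to OXA3. The groups overlapped, because NT3 was above OXA1, but the ratio was higher in OXA in 3 of 3 same-numbered pairs. The log2 difference was 0.38 (exact permutation test, p = 0.2) and 0.21 without NT1. The count of BCL2L1 over that of MCL1 was 0.772, 1.17 and 1.02 in NT1 to NT3 and 1.505, 1.748 and 1.487 in OXA1 to OXA3. These groups did not overlap, and the ratio was 1.62-fold higher in OXA (log2 difference 0.70, exact permutation test, p = 0.1), with a log2 difference of 0.53 without NT1. These 3 ratios were the only ones tested, and Benjamini-Hochberg adjustment over them gave 0.15 for BAX over BAK1, 0.2 for BAX over BCL2L1 and 0.15 for BCL2L1 over MCL1 (exact permutation tests).

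**Figure D3:**
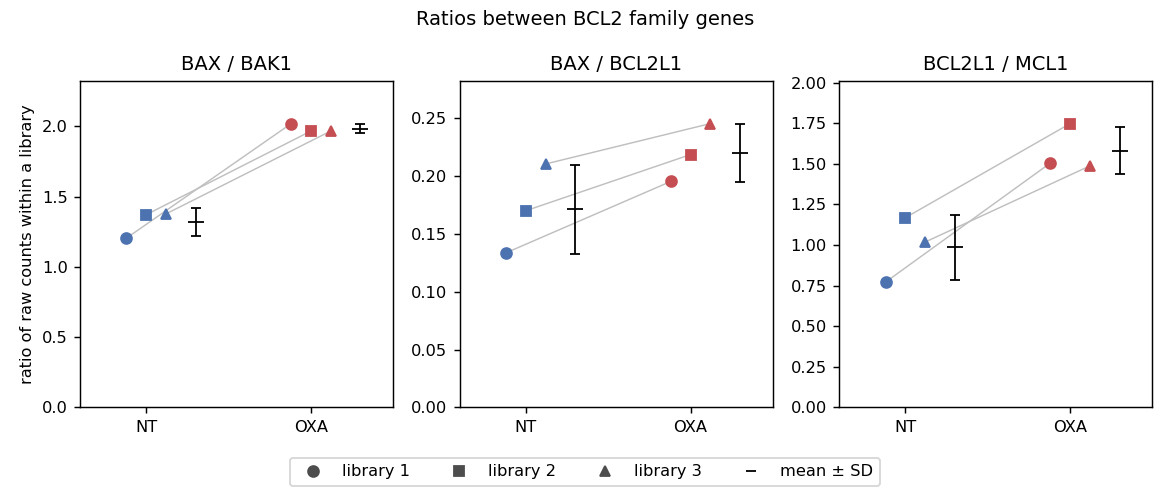
Ratio of raw counts between gene pairs (y axis, from 0) in each NT and OXA library. Symbols are libraries, grey lines join same-numbered libraries and black marks give mean ± SD of the ratio (n = 3). BAX over BAK1 and BCL2L1 over MCL1 separate the groups, and BAX over BCL2L1 does not.

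To compare levels between genes, normalized counts were divided by the length of the longest annotated transcript, in counts per kb. In NT, BCL2L1 was the highest at 2307 ± 285 counts per kb (SD, n = 3), followed by MCL1 at 1695 ± 145 and BAX at 959 ± 287. BAK1 (442 ± 106), BCL2L2 (381 ± 23.7) and BOK (372 ± 115) came next. The ranges of BAK1 and BCL2L2, and of BCL2L2 and BOK, overlapped, so their order is not separated. BCL2 was far lower, at 24.1 ± 1.46 counts per kb. The order in NT also depends on the length used. With canonical transcripts BAX (1092 to 2043 counts per kb) overlapped MCL1 (1803 to 2132). With merged exons BAX (335 to 628) overlapped BAK1 (326 to 533). With no length correction MCL1 was above BCL2L1, at means of 7711 against 7515 normalized counts, with ranges that overlapped.

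In OXA, BCL2L1 was again the highest at 4171 ± 90.4 counts per kb. BAX (2195 ± 236) and MCL1 (1898 ± 129) followed with ranges that overlapped. BAK1 (680.2 ± 82.2), BCL2L2 (444 ± 12.4), BOK (357 ± 59.3) and BCL2 (17.3 ± 1.42) came after them, each separated from the next at this length. With merged exons BOK (291 to 408 counts per kb) overlapped BCL2L2 (322 to 338). With no length correction BCL2L2 (1558 to 1636 normalized counts) overlapped BAK1 (1306 to 1663). The place of BAX depends on the length used as well, because its longest transcript has 1358 bases, its merged exons 2587 and its canonical transcript 795. With merged exons BAX was below MCL1 in OXA, at 1152 counts per kb against 1388, and with the canonical transcript above it, at 3749.9 against 2186.

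As a share of the summed counts per kb of all members, BAX took 15.3% ± 3.22 in NT and 22.4% ± 1.67 in OXA (SD, n = 3). BCL2L1 took 37.3% ± 2.04 and 42.8% ± 1.80, whereas MCL1 took 27.8% ± 5.39 and 19.5% ± 1.59. The share of MCL1 was 34.0%, 24.3% and 25.1% in NT1 to NT3 and 21.0%, 17.8% and 19.6% in OXA1 to OXA3. The share of the 3 pore-forming genes together was 22.1%, 30.1% and 32.7% in NT1 to NT3 and 30.1%, 34.1% and 35.0% in OXA1 to OXA3. The groups overlapped, with NT1 alone clearly lower, and the share was higher in OXA in 3 of 3 same-numbered pairs. The mean difference of 4.75 percentage points became 1.65 without NT1. It was 2.34 with no length correction, 2.59 with merged exons and 6.31 with the canonical transcripts. A larger part for BAX thus stood beside a larger part for BCL2L1. The part of MCL1 was smaller although its mean level was higher in OXA (8634 normalized counts) than in NT (7711). That rise had an edgeR adjusted p of 0.391. A share can fall while the level rises, because all shares are parts of the same sum.

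**Figure D4:**
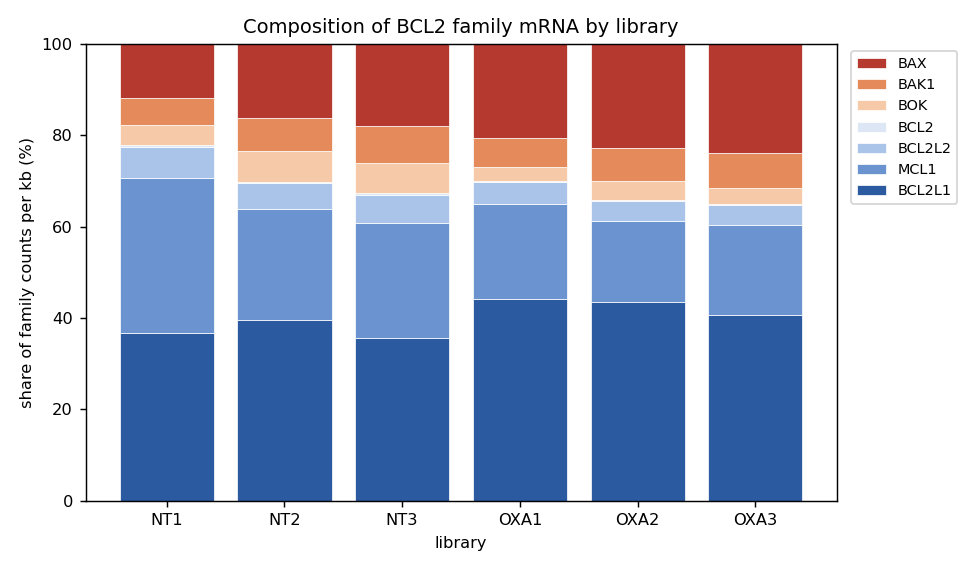
Share of the summed counts per kb (y axis, percent) held by each gene in each of the 6 libraries (x axis). Blue tones are survival genes and orange tones pore-forming genes, and BCL2A1, below 0.02% in every library, is not drawn. The pore-forming part is 22.1% in NT1 and between 30.1% and 35.0% in the other libraries.

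Sequences upstream of the genes that moved are shown to let the promoters of the 2 called genes be read beside that of BAK1. They are the 250 bases before the start of transcription in RefSeq (build GRCh38.p14), in which 6 of the 8 members had an entry. BCL2L2 and MCL1 had none. Capitals mark matches, on either strand, to the p53 half-site consensus, to GGGCGG (the GC box bound by SP1) and to CACGTG (an E-box), the only motifs searched. For BCL2L1, which has 2 entries, the window of the downstream start is given. The RefSeq starts differ from the GENCODE gene coordinates given above. The windows of BAX and BAK1 partly overlap those coordinates, and the windows of BOK and of BCL2L1, as given here, lie within them.
BAX, chr19:48954625-48954874, plus strand: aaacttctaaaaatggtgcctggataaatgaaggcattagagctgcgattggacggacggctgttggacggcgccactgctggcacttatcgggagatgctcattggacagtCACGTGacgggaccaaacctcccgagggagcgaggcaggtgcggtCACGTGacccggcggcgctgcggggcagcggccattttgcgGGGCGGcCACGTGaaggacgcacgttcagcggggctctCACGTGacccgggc
BAK1, chr6:33580277-33580526, minus strand: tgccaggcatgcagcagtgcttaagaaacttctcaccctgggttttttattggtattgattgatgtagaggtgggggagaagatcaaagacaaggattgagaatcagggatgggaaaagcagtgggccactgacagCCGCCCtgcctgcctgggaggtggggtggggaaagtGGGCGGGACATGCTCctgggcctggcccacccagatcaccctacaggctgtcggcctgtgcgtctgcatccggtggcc
BCL2L1, chr20:31722869-31723118, minus strand: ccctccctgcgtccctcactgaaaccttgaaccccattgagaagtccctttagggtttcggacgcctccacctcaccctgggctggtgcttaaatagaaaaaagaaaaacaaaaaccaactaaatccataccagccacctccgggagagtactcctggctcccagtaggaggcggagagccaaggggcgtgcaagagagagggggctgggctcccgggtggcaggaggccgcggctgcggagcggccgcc

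The window of BAX held CACGTG 4 times, with first bases at -138, -93, -45 and -14 from the start, and GGGCGG once at -52. Of the 35116 windows of the same length, 6.34% held CACGTG at least once and 5 windows (0.0142%) at least 4 times. The BAX window held no match to the p53 half-site. BAK1 held 1 match to the half-site at -73, a motif found in 5.57% of windows. Its first base is also the last base of a GGGCGG at -78, and a further GGGCGG lay at -114 on the other strand. GGGCGG occurred in 42.6% of all windows. BOK held 1 GGGCGG, and the windows of BCL2L1, BCL2 and BCL2A1 held no match. A match is a string of letters and not a measured binding site, and its absence says only that the letters are not in this window.

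Of the BH3-only genes, whose products act on the members above, all 8 were tested and 1 was called higher and 0 lower, beside 2.78% and 2.29% of all tested genes. At an unadjusted p-value under 0.05, 3 were higher and 2 lower (21.7% of all genes in either direction), and DESeq2 called 2 higher and 0 lower (4.48% and 4.23% of all genes). The called gene was PMAIP1, with 1655 ± 188 normalized counts in NT and 2479 ± 331 in OXA (SD, n = 3), a log2 fold change of 0.58 and an edgeR adjusted p of 0.0496. It was 0.64 without NT1 (adjusted p = 0.0219), and the call was lost without NT2 (0.46, adjusted p = 0.120), NT3 (0.59, 0.135), OXA1 (0.60, 0.175), OXA2 (0.67, 0.0943) or OXA3 (0.44, 0.174). BBC3 had the largest log2 fold change, 1.31 (adjusted p = 0.107), from 137 ± 69.3 to 341 ± 95.2 normalized counts. Its NT1 value, 61.3, was well under the 197 and 152 of NT2 and NT3, and without NT1 the log2 fold change was 0.96 (adjusted p = 0.0424). BBC3 was not called without NT2 (1.64, adjusted p = 0.0978), NT3 (1.37, 0.225), OXA1 (1.48, 0.191), OXA2 (1.08, 0.315) or OXA3 (1.32, 0.235). With the replicate block, PMAIP1, BBC3 and BIK were called higher and BCL2L11, which encodes BIM, was called lower (-0.36, adjusted p = 0.0301), beside 12.1% of all genes called higher and 10.9% lower. The median of the 8 was 0.20, with BMF the lowest at -0.61 (adjusted p = 0.217).

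In the other lists edgeR called 0 genes, beside 5.07% of all tested genes, too small a share for lists of this size to be read as a difference. Of 5 further BCL2 homologues, 3 were tested and 0 called, with log2 fold changes from -0.12 (BCL2L12) to 0.98 (BCL2L15, adjusted p = 0.115). BCL2L10 had no count in any library, and BCL2L14 was too low to test. Of 11 channel and membrane partners, such as VDAC2, which recruits BAK and BAX to mitochondria, 0 were called and the values lay between -0.26 and 0.17. The replicate block called 1 of these lower, TMBIM6 (-0.26, adjusted p = 0.0157), a fit that called 23.0% of all genes. The 5 proteins released from the intermembrane space, cytochrome c (CYCS) among them, lay between -0.11 and 0.10 with 0 called. Of 6 ubiquitin ligases and proteases that set the stability of MCL1, 0 were called. With the replicate block FBXW7 was higher (0.37, adjusted p = 0.0161), as it was without NT1 (0.45, adjusted p = 0.0247). FBXW7 was not called without NT2 (adjusted p = 0.206), NT3 (0.262), OXA1 (0.293), OXA2 (0.218) or OXA3 (0.252). At an unadjusted p-value under 0.05, edgeR had 1 homologue higher, 1 partner lower, 0 intermembrane proteins and 1 ligase or protease higher (21.7% of all genes), and DESeq2 called 0 in each of these lists (8.71% of all genes).

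**Figure D5:**
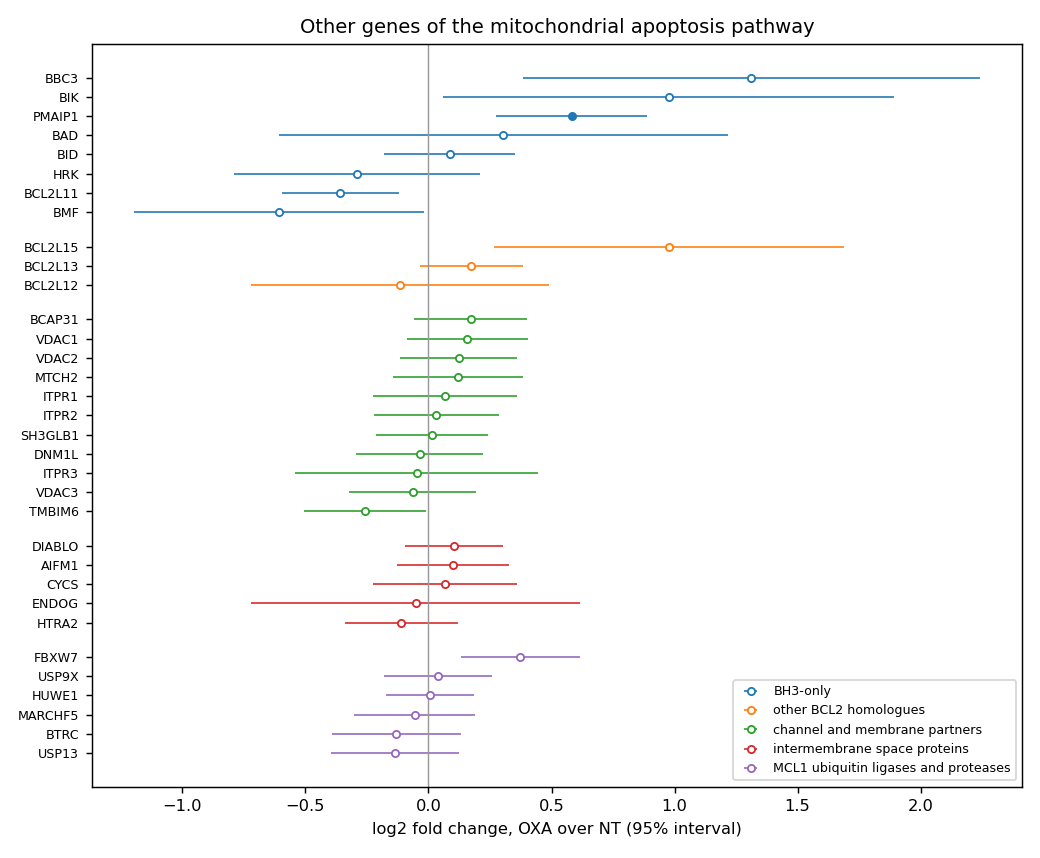
Log2 fold change of OXA over NT (x axis) with its 95% interval for the tested genes of 5 lists (y axis, 1 colour a list). The filled point is the only gene with an edgeR adjusted p under 0.05, PMAIP1 at 0.58. BBC3, at 1.31, is the largest value, and the intermembrane space proteins lie within -0.11 and 0.10.

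The genes whose levels over the 6 libraries most resembled those of BAX and BCL2L1 were sought among 12065 genes with a mean of at least 50 normalized counts, by the root mean square distance between log2 values centred on each gene's mean. SESN2, which encodes the stress-responsive protein sestrin 2, was nearest to BAX at a distance of 0.038, followed by IGFBP6 (0.090) and SERTAD1 (0.094). AXL, a receptor tyrosine kinase, was nearest to BCL2L1 at 0.054, followed by SPRY1 (0.060) and ALOXE3 (0.064). SESN2 had means of 556 and 1245 normalized counts in NT and OXA, and AXL of 2082 and 3939. The distances describe these 6 libraries only.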

How the data were processed

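RNA-seq libraries of poly(A) RNA from HCT116 cells, 3 NT and 3 OXA, were grouped by their labels. The submitters' processing notes name Trimmomatic 0.32, STAR 2.7.5b, RSEM 1.3.3, DESeq2 2.13 and GRCh38. According to the study's methods, STAR mapped the reads to GRCh38 and DESeq2 served for normalization and testing, whereas no role is given there for Trimmomatic and RSEM. The gene annotation and the strand setting of the counting are not given in the sources used here. The table deposited by the authors holds, per gene, a raw value of each library, taken here as a rounded estimated count, and a normalized signal, which is the raw value scaled by a factor that differs between genes. The signal was used only as an alternative.

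Genes passing edgeR's filterByExpr (minimum count 10, minimum total 15) were normalized by TMM and compared by the quasi-likelihood test of edgeR, adjusted by Benjamini-Hochberg (edgeR 4.0.16, limma 3.58.1, R 4.3.3). Replicate numbers come from the labels, which do not say what they stand for. Deviations from group means correlated at 0.55, 0.54 and 0.31 between same-numbered NT and OXA libraries, and at -0.47 to 0.090 between others, so the fit with a replicate block is given where it changes a call. Alternatives were DESeq2 1.42.0, limma-voom, other normalization factors and filters, the authors' gene-specific factors, each library left out, and, added after the data were seen, the same for the gene lists, removal of GC and length trends (splines of 4 degrees of freedom) and other transcript lengths. GENCODE release 44 (GRCh38) gave lengths, positions and GC content. edgeR with and without the block, DESeq2 and limma-voom were tested on simulated data that held no GC or length trend. The fits with trends removed were not tested in this way. The members and gene lists were chosen with earlier results of these data known. Named genes are the members, genes of the lists and the 3 nearest in pattern to BAX and BCL2L1.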

Additional observations from a re-analysis of the deposited data

How the results depend on the processing

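Over the 10 alternatives that kept all libraries, BAX (log2 fold change 0.99 to 1.24) and BCL2L1 (0.70 to 0.86) kept their direction and an adjusted p under 0.05. Calls were gained with the replicate block for BAK1 (0.64), BCL2L2 (0.22) and BCL2 (-0.48), with GC and length trends removed for BAK1 (0.45), MCL1 (0.22) and BCL2 (-0.43), with trends removed and the replicate block for BAK1 (0.45), BCL2L2 (0.17), MCL1 (0.21), BCL2 (-0.43) and BOK (-0.27), and with DESeq2 for BAK1 (0.62). Members called higher and lower numbered 2 and 0 in the fit reported, 4 and 1 with the replicate block, 4 and 1 with trends removed, and 5 and 2 with both. Among all genes, 381 were called higher and 315 lower in the fit reported, 604 and 571 with DESeq2, 1664 and 1493 with the replicate block, 1445 and 1468 with trends removed, 3090 and 2976 with trends removed and the block, 241 and 200 with the authors' gene-specific factors, and 350 and 511 with library size only. The cause of these shifts was not tested. With 1 library left out, the log2 fold change ranged from 0.97 to 1.36 for BAX, 0.76 to 0.90 for BCL2L1, 0.44 to 0.75 for BAK1, -0.30 to 0.056 for BOK (reversed at 0.040 without NT2, 0.055 without NT3 and 0.056 without OXA1), -0.56 to -0.45 for BCL2, 0.16 to 0.24 for BCL2L2 and 0.077 to 0.23 for MCL1. Members called higher ranged from 0 (without OXA1) to 2 (without NT1), all genes called higher from 66 (without OXA1) to 623 (without NT1), and all genes called lower from 19 (without OXA1) to 571 (without NT1). Leaving out any of the 6 libraries moved both counts by over 1.5 times. The log2 ratio ranged from 0.53 to 0.63 for BAX to BAK1, 0.21 to 0.54 for BAX to BCL2L1 and 0.53 to 0.83 for BCL2L1 to MCL1, and the difference in pore-forming share from 1.65 to 6.93 percentage points. With the replicate block, 3 pairs allow no exact p under 0.25 for a ratio. Depth limits BCL2A1, which stayed at or under 1 count in each library.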
